A study of Mus musculus with 16 samples.

Results

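The 10 genes described here encode proteins of the contractile apparatus of smooth muscle: Acta2, Tagln, Cnn1, Cald1 and Tpm2 of the thin filament, Myh11, Myl9 and Mylk of the thick filament and its regulation, and Des and Synpo2, which anchor the filaments. They were chosen by gene symbol, and each was found in 1 row among the 32989 rows of both organ tables. Liver and kidney RNA was measured by poly(A)-enriched RNA-seq in 8 male C57BL/6J mice, which makes 16 libraries. The 4 LD-conditioned mice (L63, L65, L86 and L104) were kept in a light–dark cycle with light from 8:00 to 20:00, and the 4 ADV-conditioned mice (A75, A91, A94 and A115) in a light–dark cycle that was advanced by 8 hours every 4 days. Both conditions lasted 85 weeks, so that all mice were 97 weeks old, and both organs came from the same mice. The labels name no allele and no other treatment in either group.

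Smooth muscle contracts when calcium activates the myosin light chain kinase, which phosphorylates the regulatory light chain of myosin and lets the thick filament pull on the actin thin filament. In the liver, smooth muscle lies in the walls of the hepatic artery and the portal vein, and hepatic stellate cells can take up part of the same gene program. In the kidney it lies in the walls of arteries and arterioles and in the renal pelvis, and the mesangial cells of the glomerulus and the pericytes are contractile as well. Transcription of many of these genes is driven by serum response factor (SRF) with its coactivator myocardin through the CArG box, a DNA element that opens with CC, closes with GG and has letters A or T between them.

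The CArG boxes before Acta2 and Myl9 are shown because both genes were among the members with the widest spread between livers, and the stretch before Cald1 because it was the single member whose ADV and LD livers did not overlap. RefSeq promoter windows (GRCm38.p6, the build of the data, 250 bases before to 50 bases after a gene's start) were held for 8 of the 10 members, in 9 windows. Tagln and Myh11 had no window. Capitals mark a CArG box, searched on both strands, which read the same letters for CC and GG, as CC, then 6 letters of which at least 5 are A or T, then GG.
Acta2 first box, chr19:34255438-34255467, minus strand: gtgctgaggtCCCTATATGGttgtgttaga
Acta2 second box, chr19:34255388-34255417, minus strand: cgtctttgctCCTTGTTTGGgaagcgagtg
Myl9, chr2:156775284-156775383, plus strand: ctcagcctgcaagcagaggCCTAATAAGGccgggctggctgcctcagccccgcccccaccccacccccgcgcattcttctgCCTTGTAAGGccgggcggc
Cald1, chr6:34709334-34709433, plus strand: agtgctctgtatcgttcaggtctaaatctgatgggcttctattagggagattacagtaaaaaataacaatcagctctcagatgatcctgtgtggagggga
The boxes of Acta2 began 84 and 34 bases before the RefSeq start, and those of Myl9 161 and 99 bases before it. GENCODE places both Acta2 boxes inside the first exon of another Acta2 transcript, so that they lie before the start of the RefSeq transcript only. Such a box occurred in 9.98% of all 32851 RefSeq windows, and the form with A or T at all 6 inner letters, which only the first box of Myl9 had, in 1.63%. No match was found in the windows of Cnn1, Des, Mylk, Tpm2 and Synpo2 or in either window of Cald1, which says only that these letters are not within these bases. Members without a match were found both among those that followed Acta2 in the liver and among those that did not.

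The values are FPKM, fragments divided by the exon length in kilobases and by the library total on a common scale, and can be compared between genes because the exon length is divided out. Genes held 21092501 to 24285055 fragments per liver and 15688495 to 18043306 per kidney, where each read of a pair counts 0.5. Markers matched the organ labels: Alb, the albumin gene, had 41459 to 52061 FPKM in liver and 2.83 to 5.71 FPKM in kidney, and the kidney gene Kap had 16595 to 45922 FPKM in kidney and 0 in all 8 livers. A pair of libraries stood apart from the others of their organ across all genes tested. The A94 liver correlated with the remaining livers at a mean r of 0.941, where each of the others reached 0.977 to 0.982. The A115 kidney reached 0.858, and each of the remaining kidneys 0.932 to 0.964. Mitochondrial genes took 33.8% of the fragments in the A115 kidney against 15.7% to 18.02% in the LD kidneys, and 10.7%, 13.1% and 9.43% in the A75, A91 and A94 kidneys, all below the LD range. The reads came from a pair of sequencing providers, and which library came from which is not given in the sources used here, so that provider and condition cannot be told apart.

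Smooth muscle genes were low in the LD livers, apart from Cald1 and Mylk. Cald1 was highest with 34.5 ± 1.62 FPKM (SD, n = 4), followed by Mylk with 5.93 ± 0.903, Tpm2 with 2.79 ± 0.910, Tagln with 2.55 ± 0.563, Des with 1.13 ± 0.102, Myl9 with 1.04 ± 0.218, Acta2 with 0.512 ± 0.228, Myh11 with 0.216 ± 0.0579, Cnn1 with 0.0450 ± 0.0234 and Synpo2 with 0.0314 ± 0.0108. Within this order the ranges of Tpm2 and Tagln, of Des and Myl9, and of Cnn1 and Synpo2 overlapped, and those of the other neighbours did not. Cnn1 rested on 1 to 4 fragments and Synpo2 on 4 to 8.5 fragments in each LD liver, so that their low levels cannot be told from one another at this depth.

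The thin filament gene Acta2 (uc008hgg.2, chr19:34240336-34255373, minus strand), which encodes smooth muscle alpha-actin, was 0.454, 0.412, 0.846 and 0.334 FPKM in the livers of L63, L65, L86 and L104 and 7.89, 0.599, 3.76 and 2.26 FPKM in those of A75, A91, A94 and A115. The A75, A94 and A115 livers lay above all LD livers, and A91 lay within the LD range. The mean was 3.63 ± 3.12 FPKM in the ADV livers against 0.512 ± 0.228 FPKM in the LD livers, and the log2 fold change was 2.19 with a standard error of 0.63. Positions are those of the UCSC gene in mm10, the annotated span with its exons and introns, whose exons alone were counted. All fold changes are differences of means on the log2(FPKM + 0.1) scale, which understates the change of low genes. The adjusted p of limma over all 12835 liver genes tested was 0.310. The paper reports Acta2 as upregulated in the ADV livers, among genes it links to fibrosis. The paper's own test on counts was not run here. In bulk RNA a difference in the number of smooth muscle cells and a difference in the RNA per cell cannot be told apart, which holds for every member.

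Tagln (uc009pgs.2, chr9:45929628-45936058, minus strand), which encodes the actin-binding protein SM22, was 3.09, 1.90, 2.95 and 2.27 FPKM in the LD livers and 13.9, 2.995, 18.3 and 5.07 FPKM in the ADV livers, with the mice in the same order as above, which is kept below. Again A75, A94 and A115 lay above all LD livers and A91 within their range, and A94 was highest. The log2 fold change was 1.62 with a standard error of 0.51 (limma adjusted p = 0.326). Cnn1 (uc009onv.2, chr9:22099253-22109221, plus strand), the gene of calponin 1, which binds actin and restrains the myosin ATPase, was 0.0413, 0.0205, 0.0769 and 0.0412 FPKM in the LD livers and 2.28, 0.0109, 0.200 and 0.185 FPKM in the ADV livers. A75 held 105.5 fragments, A94 and A115, which were above the LD range too, held 9 and 8.5, and A91 held 0.5 fragment and lay below the LD range.

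Cald1 (uc009bhk.1, chr6:34709444-34775469, plus strand), the gene of caldesmon, which also occurs in a short form outside muscle, was 36.8, 33.9, 33.0 and 34.5 FPKM in the LD livers and 47.8, 49.99, 53.2 and 49.0 FPKM in the ADV livers. It was the single member with all 4 ADV livers above all 4 LD livers, which 6.94% of the genes tested showed as well. The mean was 1.45 times higher and the log2 fold change was 0.53 with a standard error of 0.08. The limma p was 8.0e-05 before and 0.210 after adjustment over all genes, and the exact two-sided permutation p was 0.0286, the smallest that 4 against 4 mice allow. Tpm2 (uc008sqc.2, chr4:43513726-43523554, minus strand), the gene of beta-tropomyosin, which covers the actin filament, was 2.27, 2.41, 2.33 and 4.15 FPKM in the LD livers and 2.71, 3.71, 2.33 and 2.77 FPKM in the ADV livers. The groups of Tpm2 overlapped, the highest value was that of the LD mouse L104, and the log2 fold change of 0.07 with a standard error of 0.22 turned to -0.02 with median ratio scaling.

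The thick filament gene Myh11 (uc007yhe.2, chr16:14194527-14291408, minus strand), which encodes the heavy chain of smooth muscle myosin and is the marker most restricted to mature smooth muscle, was 0.262, 0.161, 0.270 and 0.171 FPKM in the LD livers and 1.97, 0.247, 0.862 and 0.382 FPKM in the ADV livers. A75, A94 and A115 lay above all LD livers and A91 within their range. The log2 fold change was 1.28 with a standard error of 0.50 (limma adjusted p = 0.385). Myl9 (uc008nnw.2, chr2:156775464-156781657, plus strand), the gene of the regulatory light chain, was 0.871, 0.865, 1.09 and 1.32 FPKM in the LD livers and 10.8, 1.10, 5.73 and 2.24 FPKM in the ADV livers, with the same mice above the LD range. The log2 fold change of Myl9 was 1.70 with a standard error of 0.58 (limma adjusted p = 0.362). Mylk (uc007zbd.1, chr16:34784950-35002434, plus strand), the gene of the kinase that phosphorylates this light chain, was 6.02, 5.89, 4.804 and 7.01 FPKM in the LD livers and 5.70, 6.16, 6.94 and 7.95 FPKM in the ADV livers. The groups of Mylk overlapped, and A75, the liver with the most Myl9, had the second lowest Mylk of all 8 livers. Mylk also gives a long non-muscle form, and forms were not counted apart.

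Des (uc007box.2, chr1:75360292-75368579, plus strand) encodes desmin, the intermediate filament of muscle, which rodent stellate cells also make. It was 1.13, 1.27, 1.09 and 1.04 FPKM in the LD livers and 2.99, 1.01, 3.34 and 1.27 FPKM in the ADV livers. Only A75 and A94 lay above the LD range, and the log2 fold change was 0.71 with a standard error of 0.35 (limma adjusted p = 0.451). Synpo2 (uc012cxa.1, chr3:123076519-123236149, minus strand), which encodes an actin-binding protein of the Z-disc, was 0.0230, 0.0342, 0.0455 and 0.0230 FPKM in the LD livers and 0.264, 0.0182, 0.0958 and 0.0788 FPKM in the ADV livers, with A91 below the LD range and the other ADV livers above it. Without A75, Cnn1 and Synpo2 had a mean of 0.163 and 0.324 on the scale of FPKM times exon length in kilobases and would not have entered the test, for which a mean above 0.5 was asked.

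**Figure D1:**
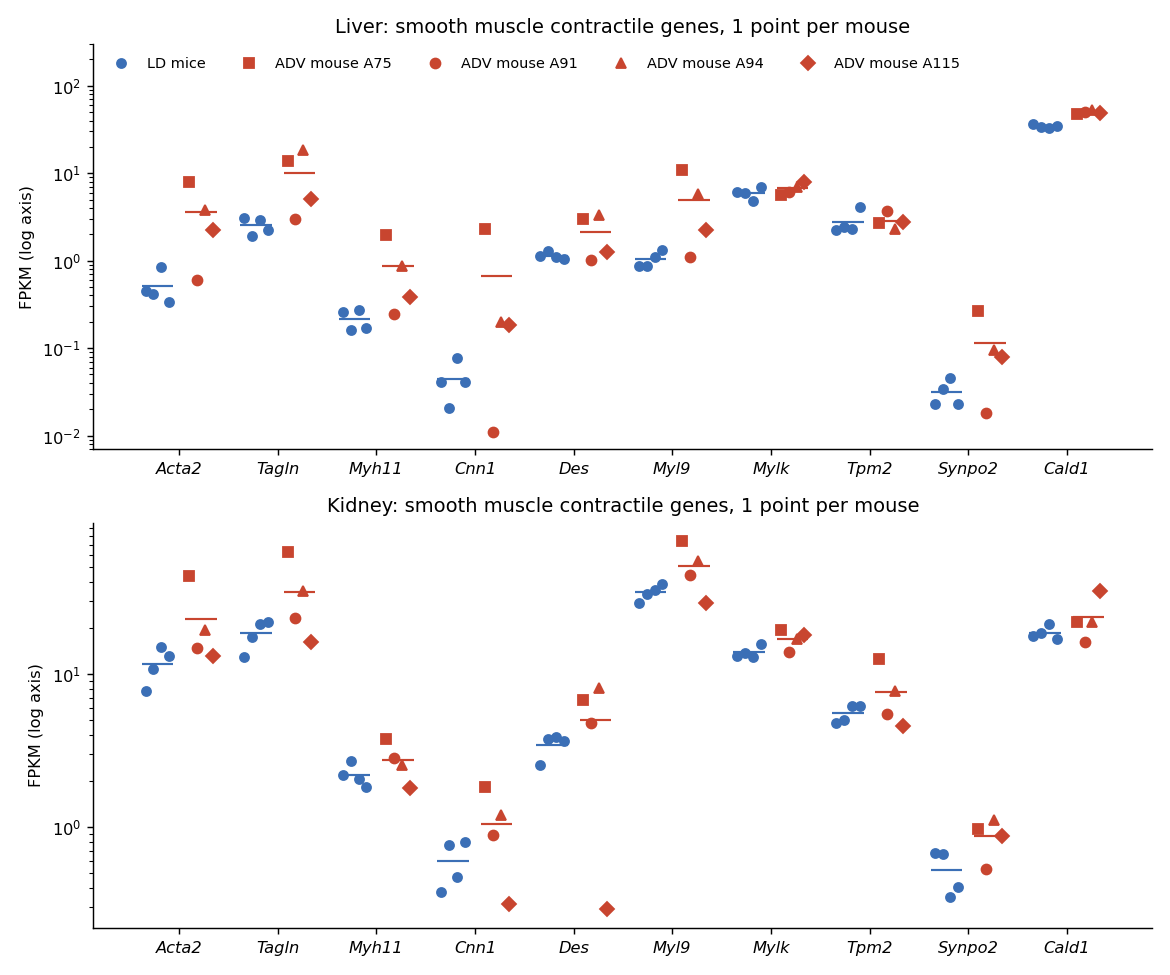
Each point is the FPKM of a gene in 1 mouse on a log axis, liver above and kidney below, with LD mice as blue circles in the order L63, L65, L86, L104 and ADV mice in red with a symbol each; lines are group means of 4 mice. In the liver the A91 points of Acta2, Tagln, Myh11 and Myl9 sit within the LD range and those of A75, A94 and A115 above it, and in the kidney the A115 point of Des (0.291 FPKM) lies far below the others.

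In the liver 0 of the 10 members passed an adjusted p under 0.05 in limma, as did 0.00779% of all genes tested, which is 1 gene. Cnn1 and Synpo2 had entered the test only through A75 and are left out of the counts and medians for the liver that follow. All 8 remaining log2 fold changes were above 0, with a median of 0.99 against 0.096 over all genes, of which 65.7% were above 0. This median was 0.68 and 0.53 with pseudocounts of 0.5 and 1, 1.16 with limma-voom, 0.68 without A75, 1.32 without A91 and 0.45 without A75 and A94. The fold change of Tpm2 was below 0 with median ratio scaling, with quantile normalization, without L63 and without A91. At an unadjusted p under 0.05, 5 members were higher in the ADV livers (Acta2, Tagln, Myh11, Myl9 and Cald1) and 0 lower, against 8.65% of all genes higher and 3.13% lower. The direction of all genes depended on the scaling: 1110 genes higher and 402 lower at an unadjusted p under 0.05 became 841 and 860 with median ratio scaling and 633 and 997 with quantile normalization. The count of 5 members stayed with median ratio scaling. It was 4 with quantile normalization, with a pseudocount of 1, with a minimum mean of 1 FPKM and without L65, L104 or A75, 3 without A75 and A94, and it gained Des without A91 or without A115. Limma-voom on the recovered fragments called 0 members at an adjusted p under 0.05 and had 5 at an unadjusted one. Exact permutation p-values lay between 0.0286 for Cald1 and 0.629 for Tpm2, with 0.0571 for Acta2, Tagln and Myl9.

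The differences were uneven among the ADV livers. Over the same 8 members, A75, A94 and A115 were above the LD range for 6 each, while A91 was above it for Cald1 alone, within it for 6 and below it for Des. The median difference from the LD mean was 1.88 in A75, 1.55 in A94, 0.565 in A115 and 0.202 in A91 on the log2 scale. A75 was the highest of the 8 livers for Acta2, Myh11 and Myl9 and A94 for Tagln, Des and Cald1. When A75 and A94 were left out, 8 members could be tested and the log2 fold change went from 2.19 to 1.14 for Acta2, from 1.70 to 0.58 for Myl9, from 1.62 to 0.62 for Tagln, from 1.28 to 0.39 for Myh11 and from 0.71 to 0.01 for Des, while it was 0.52 for Cald1. Without A94 alone, the liver that stood apart, it was 2.02 for Acta2, 1.22 for Tagln, 1.48 for Myl9, 1.17 for Myh11, 0.45 for Des and 0.50 for Cald1.

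**Figure D2:**
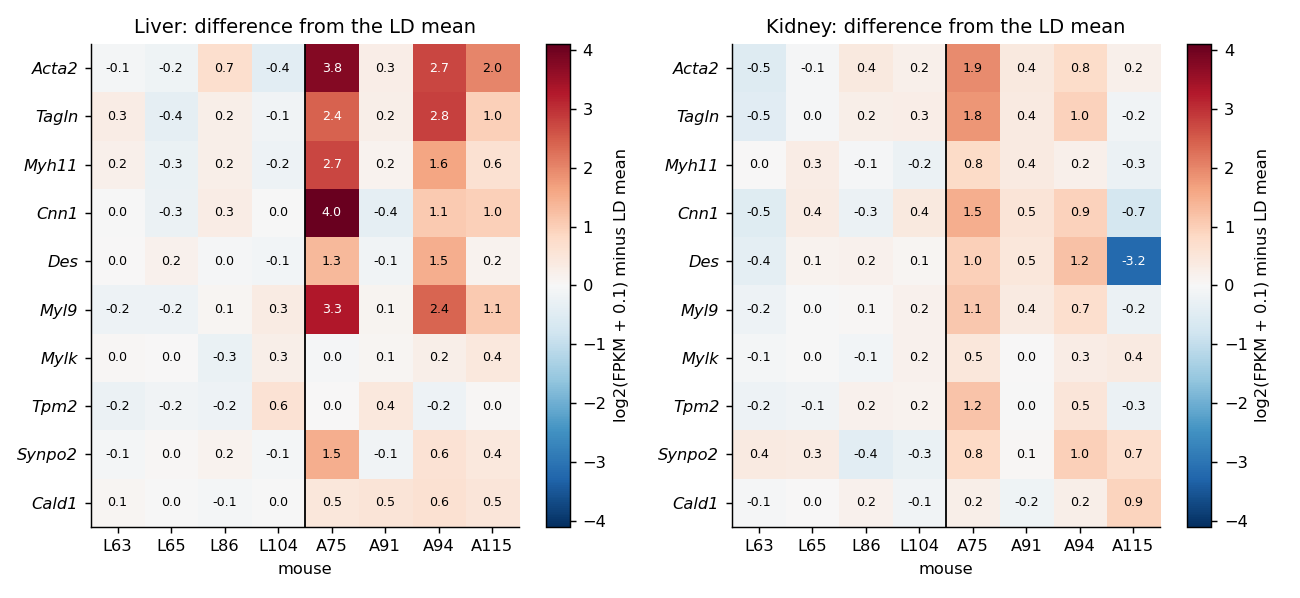
Colour and number give the difference of log2(FPKM + 0.1) from the mean of the 4 LD mice for each member (rows) and mouse (columns), liver left and kidney right; the black line parts LD from ADV mice. A75 and A94 are red for most members in both organs, and the A115 kidney is lowest at Des (-3.2). A91 is nearer to 0 in the liver, with the largest differences at Cald1 (0.5), Tpm2 (0.4) and Cnn1 (-0.4).

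In the LD kidneys the order of the members was another. Myl9 was highest with 34.4 ± 3.97 FPKM (SD, n = 4), followed by Cald1 with 18.6 ± 1.86, Tagln with 18.5 ± 4.18, Mylk with 13.9 ± 1.34, Acta2 with 11.7 ± 3.11, Tpm2 with 5.58 ± 0.741, Des with 3.47 ± 0.609, Myh11 with 2.20 ± 0.362, Cnn1 with 0.606 ± 0.214 and Synpo2 with 0.529 ± 0.174. The ranges of neighbours from Cald1 through Tagln and Mylk to Acta2 overlapped, as did those of Des and Myh11 and of Cnn1 and Synpo2, and the other neighbours were apart.

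Among the thin filament genes, Acta2 was 7.77, 10.9, 14.99 and 13.1 FPKM in the LD kidneys and 44.03, 14.96, 19.4 and 13.1 FPKM in the ADV kidneys. A75 was highest, A94 followed, and A91 and A115 lay within the LD range. Tagln was 13.0, 17.6, 21.3 and 22.1 FPKM in the LD kidneys and 63.2, 23.3, 35.3 and 16.3 FPKM in the ADV kidneys, with A115 within the LD range. Cnn1 was 0.378, 0.767, 0.470 and 0.807 FPKM in the LD kidneys and 1.82, 0.885, 1.205 and 0.317 FPKM in the ADV kidneys, with A115 below all others. For each of these genes the groups overlapped, and the log2 fold changes were 0.83 ± 0.39 (SE) for Acta2, 0.74 ± 0.41 for Tagln and 0.57 ± 0.48 for Cnn1.

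Tpm2 was 4.84, 5.05, 6.24 and 6.20 FPKM in the LD kidneys and 12.6, 5.52, 7.82 and 4.63 FPKM in the ADV kidneys, again with A75 highest and A115 lowest. Cald1 was 17.8, 18.6, 21.2 and 16.9 FPKM in the LD kidneys and 22.0, 16.3, 22.1 and 34.8 FPKM in the ADV kidneys. Here A115 was highest, so that Cald1 ran against Tpm2, Cnn1 and Des in that kidney.

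Of the myosin genes, Myh11 was 2.19, 2.69, 2.08 and 1.83 FPKM in the LD kidneys and 3.79, 2.83, 2.54 and 1.81 FPKM in the ADV kidneys. Myl9 was 29.4, 33.6, 35.8 and 38.9 FPKM in the LD kidneys and 74.2, 44.4, 55.1 and 29.0 FPKM in the ADV kidneys, with A75, A91 and A94 above all LD kidneys and A115 below them. The kinase gene Mylk was 13.1, 13.8, 13.0 and 15.9 FPKM in the LD kidneys and 19.4, 14.0, 17.0 and 17.9 FPKM in the ADV kidneys, where A91 alone lay within the LD range. The log2 fold changes were 0.27 ± 0.25 (SE) for Myh11, 0.48 ± 0.28 for Myl9 and 0.29 ± 0.15 for Mylk.

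Des was 2.57, 3.80, 3.89 and 3.64 FPKM in the LD kidneys and 6.82, 4.82, 8.08 and 0.291 FPKM in the ADV kidneys. A75, A91 and A94 lay above all LD kidneys, and the A115 kidney held 17 fragments of Des against 152.5 or more in every LD kidney. Its log2 fold change was -0.13 with a standard error of 0.90 over all 8 mice and 0.89 without A115. Synpo2 was 0.681, 0.674, 0.352 and 0.407 FPKM in the LD kidneys and 0.976, 0.536, 1.11 and 0.874 FPKM in the ADV kidneys, with A91 within the LD range and the others above it.

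In the kidney 0 of the 10 members passed an adjusted p under 0.05 in limma, as did 0% of all 14452 genes tested, and the adjusted p was 1.0 for each. At an unadjusted p under 0.05, 0 members were higher or lower, against 1.75% of all genes higher and 1.35% lower. With median ratio scaling or quantile normalization Acta2, Tagln and Myl9 were higher at this threshold, and without A91 Mylk and Synpo2 were. With library totals without mitochondrial genes 1 member was higher. The adjusted test passed 0 members in each case. The groups of 0 members were apart, as against 0.962% of all genes with all ADV kidneys above all LD kidneys. The log2 fold change was above 0 for 9 members and below 0 for Des, which lay above 0 with pseudocounts of 0.5 and 1, with a median of 0.42 against -0.02 over all genes. Exact permutation p-values lay between 0.0571 for Mylk and 1.0 for Des. Limma-voom also called 0 members.

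These kidney values turned on the A115 library. Without it the log2 fold change was above 0 for all 10 members, and 2 of them passed in limma, Des with 0.89 (adjusted p = 0.0264) and Myl9 with 0.72 (adjusted p = 0.0265). At the same time 18.8% of all genes passed, and 16.1% passed upward, so that a share of 2 in 10 members was near that of all genes. Acta2 then had 1.03 (limma adjusted p = 0.0778), Tagln 1.04 (0.0547), Cnn1 0.99 (0.0604), Myh11 0.45 (0.123) and Cald1 0.10 (0.603). Leaving out A75 and A94 in its place gave a median of 0.086 over the members, with Acta2 at 0.30 and Cnn1 at -0.09.

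**Figure D3:**
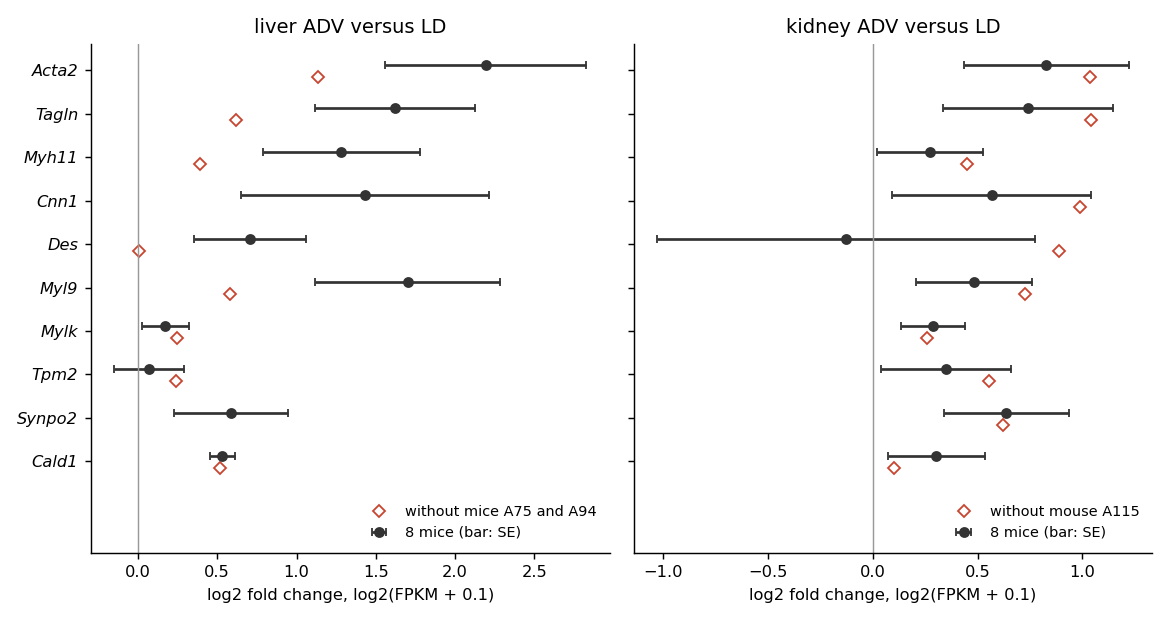
Filled points are log2 fold changes, ADV minus LD, on the log2(FPKM + 0.1) scale over 8 mice with their standard errors, liver left and kidney right; open diamonds are the same without A75 and A94 in the liver and without A115 in the kidney. Cnn1 and Synpo2 have no diamond in the liver because they then fell under the expression minimum; Des moves from -0.13 to 0.89 in the kidney and from 0.71 to 0.01 in the liver.

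The same mouse was highest in both organs. A75 had the highest median difference from the LD mean in the liver and, with 1.04, in the kidney, followed by A94 with 0.724, A91 with 0.362 and A115 with -0.197. In the kidney A75 was the highest of 8 for 7 members and above the LD range for all 10, and A94 for 9. A115 was above the LD range for 6 of the 8 members counted in its liver and below it for 5 of 10 in its kidney (Myh11, Cnn1, Des, Myl9 and Tpm2). With 4 ADV mice no relation between the organs was tested.

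Kidney and liver were then compared within mice, as a measure of the organ difference against which the ADV values can be read. In the LD mice, 9 members were higher in the kidney and Cald1 was lower, and all 10 passed in limma, against 67.6% of all 14968 genes, 56.3% higher and 11.4% lower. Cnn1 and Synpo2 count among them although their LD liver means, 0.0890 and 0.223 on the filter scale, were under the minimum of 0.5. A gene entered this test with either organ over the minimum, and apart from A75 these members did so through the kidney, where they are higher. Myl9 showed the widest gap, with kidney to liver ratios of 33.8, 38.9, 32.7 and 29.4 in the 4 LD mice and a log2 difference of 4.93 with a standard error of 0.33. Acta2 followed with ratios of 17.1, 26.4, 17.7 and 39.3 and a log2 difference of 4.29. Myh11 (2.87), Tagln (2.81), Cnn1 (2.24) and Synpo2 (2.22) lay between, and Des (1.52), Mylk (1.23) and Tpm2 (1.01) had the smallest gaps among the 9 members higher in the kidney. Cald1 was 0.484, 0.548, 0.644 and 0.489 times its liver level in the kidney, a log2 difference of -0.89.

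The size of these gaps depends on the scaling between organs, because the median over all genes was 0.80 in favour of the kidney as deposited and 0.054 with median ratio scaling. The median over the members was 2.23 as deposited and 1.80 with median ratio scaling, where Des (0.75) and Tpm2 (0.22) no longer passed, so that 8 members did, and Cald1 stayed lower in the kidney. With quantile normalization 6 members passed, against 53.1% of all genes. Des also lost its call whenever 1 LD mouse was left out (limma adjusted p 0.0569 to 0.0896), and Tpm2 without L86 (0.0504). The sign-flip permutation test over 4 mice, which is exact, cannot go below 0.125, and each member reached this value in the LD mice.

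In the ADV mice the log2 difference was nearer to 0 than in the LD mice for 6 members (Acta2, Tagln, Myh11, Cnn1, Des and Myl9) and farther from 0 for Mylk, Tpm2, Synpo2 and Cald1 (Synpo2 by 0.05, which turned to -0.79 with limma-voom and to -0.04 with median ratio scaling, and its median ratio was 11.3 against 18.7), while the median over all genes was 0.69 against 0.80. None of these changes passed the interaction test given below. The kidney to liver ratio of Acta2 was 5.58 in A75, 5.16 in A94 and 5.81 in A115 but 25.0 in A91, so that A91 lay within the LD range of 17.1 to 39.3 and the other ADV mice below it. Myl9 gave 6.89, 9.62 and 13.0 in A75, A94 and A115 and 40.3 in A91, and Myh11 1.93, 2.95 and 4.74 against 11.4 in A91. Apart from Cald1, a ratio below 1 occurred for Cnn1 in A75 (0.801) and for Des in A115 (0.229). Of the members, 8 passed upward and Cald1 downward, against 64.2% of all genes, 52.7% higher and 11.5% lower, and Des did not pass (log2 difference 0.69, limma adjusted p = 0.282). Without A115 it passed with 1.52. Cnn1 (log2 difference 1.38, limma adjusted p = 0.0392) lost its call without A91 (0.79, 0.181), without A94 (1.13, 0.142) and without any 1 of the LD mice (0.0521 to 0.0555).

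Whether the ADV effect differed between organs was tested as an interaction with each mouse as a block. The ADV effect in the kidney minus that in the liver was -1.37 ± 0.49 (SE) for Acta2 and -1.22 ± 0.47 for Myl9 on the log2 scale, with unadjusted limma p-values of 0.0224 and 0.0293 and exact permutation p-values of 0.114 and 0.143. These were the members at an unadjusted p under 0.05, and 2.65% of all genes reached it in this direction. The count of 2 was 0 without L65, A75 or A94, with a pseudocount of 1 and without the mouse block, 1 with quantile normalization or without L86 or L104, 3 with limma-voom or without A115, and 5 without A91. It was 0 without A75 and A94 and without A75 under median ratio scaling, and 4 without A115 under median ratio scaling. After adjustment 0 members and 0% of all genes passed (limma adjusted p = 0.999 for each), and limma-voom also passed 0 members. Des, at -0.84, was at -0.0031 without A115. The estimate was below 0 for 7 members and above 0 for Mylk, Tpm2 and Synpo2, although Mylk and Tpm2 were below 0 without A75 and Synpo2 in 8 of the other settings. The median over the members was -0.85 against -0.13 over all genes, of which 33.0% were above 0. It was -0.50 without A75, -0.51 without A115, where that of all genes was 0.06, -0.43 and -0.28 with pseudocounts of 0.5 and 1 and -1.27 without A91.

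**Figure D4:**
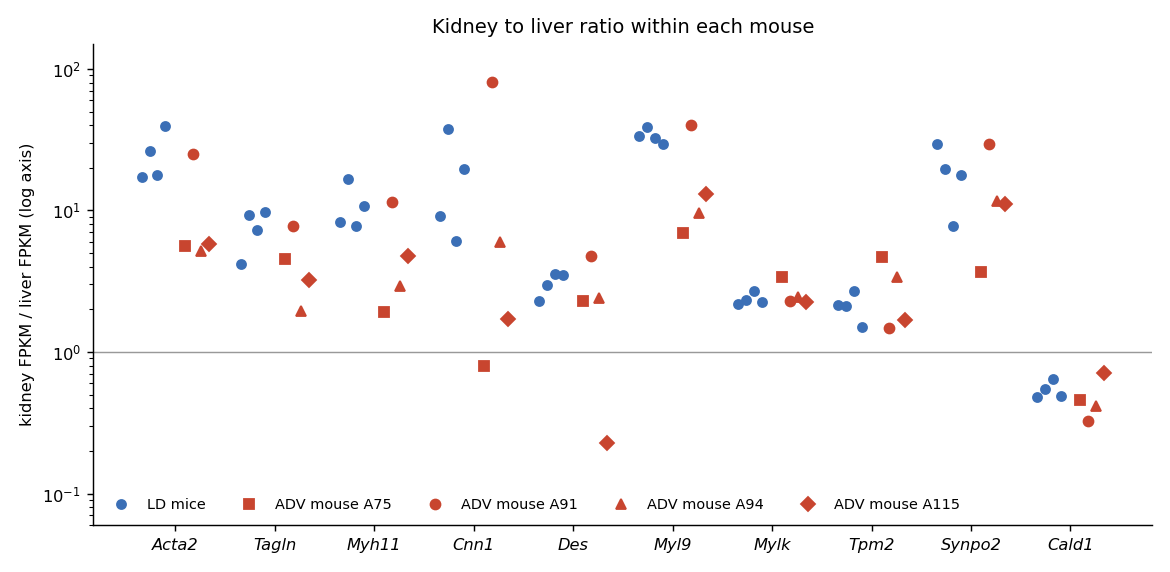
Each point is the kidney FPKM divided by the liver FPKM of the same mouse on a log axis, LD mice in blue and ADV mice in red with a symbol each; the grey line marks equal levels. For Acta2, Myh11 and Myl9 the A91 points sit within or above the LD range (25.0, 11.4 and 40.3) and those of A75, A94 and A115 below all LD points, and Cald1 is below 1 in all 8 mice.

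How closely members moved together across the 8 mice of an organ is given as Pearson's r on the log2 scale, as a description of mice that differ in condition and depth. In the liver Acta2, Tagln, Myh11, Des and Myl9 were correlated with one another with r between 0.87 and 0.96, Cnn1 and Synpo2 with r = 0.98, and Cald1 with Acta2 with r = 0.71. Cnn1 and Synpo2 had entered the liver test only through A75, with 105.5 and 44 fragments there. The other livers held at most 9 fragments of Cnn1 and 15.5 of Synpo2. Mylk and Tpm2 stood outside, with r of 0.12 and -0.29 with Acta2. In the kidney Tpm2 was close to Tagln, with r = 0.97, as were Acta2 (0.97) and Myl9 (0.98). Myh11 and Des were less close there than in the liver, with r of 0.69 and 0.41 with Acta2 and 0.73 and 0.59 with Tagln. Des and Cald1 ran against each other there, with r = -0.70, where the A115 kidney was lowest in the one and highest in the other.

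The genes outside the list whose pattern was most like the members' mean in the liver were Pls1 (r = 0.993 over 8 livers), which encodes the actin-bundling protein plastin 1, Itpripl1, Hddc2, F13a1, which encodes the A chain of clotting factor XIII, and Cp, the gene of ceruloplasmin (0.962). This mean took in all 10 members, with Cnn1 and Synpo2, which had entered the liver test only through A75. Pls1 was between 0.0110 and 0.0444 FPKM in the LD livers and 0.743, 0.0822, 0.418 and 0.158 FPKM in the ADV livers, with A75 highest and A91 lowest of the ADV mice as for Acta2. Cp, which hepatocytes make, was between 188 and 226 FPKM in the LD livers and 352, 230, 331 and 309 FPKM in the ADV livers. In the kidney they were Hp (r = 0.985), which encodes haptoglobin, H2afz, Pmepa1, Syt11 and Med4. Hp was between 0.423 and 0.925 FPKM in the LD kidneys and 6.38, 0.928, 3.54 and 0.935 FPKM in the ADV kidneys.

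A further 40 genes of smooth muscle contraction and its regulation, listed from general knowledge, were followed in the same way. In the liver 32 were tested, of which 28 had a fold change above 0 and 4 below, with a median of 0.26, where 65.7% of all genes were above 0. The adjusted test passed 0 of them, and 7 were higher and 1 lower at an unadjusted p under 0.05, against 8.65% and 3.13% of all genes. The 3 with the smallest p were Gucy1a1, the alpha subunit of the nitric oxide receptor (0.73, limma adjusted p = 0.296), Tpm1, which encodes alpha-tropomyosin (0.94, 0.305), and the integrin gene Itga8 (0.80, 0.310). Tpm1 was 6.17, 6.64, 7.66 and 6.33 FPKM in the LD livers and 13.4, 8.15, 22.6 and 11.1 FPKM in the ADV livers, so that the groups were apart, unlike those of Tpm2. In the kidney 25 of 39 were above 0 and 14 below, where 46.4% of all genes were above 0. The adjusted test passed 0, and 1 was higher (Kcnmb1) and 2 were lower (Ppp1r12b and Fhl1) at an unadjusted p under 0.05, against 1.75% and 1.35% of all genes. Kcnmb1, which encodes a subunit of the calcium-activated potassium channel, had a log2 fold change of 0.97, Ppp1r12b, which encodes a myosin phosphatase subunit, of -0.87 and Fhl1 of -0.35 (limma adjusted p = 1.0 for each).

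Reads shared with close relatives could move the counts of some members, since reads were assigned at a mapping quality of at least 10. The nearest relative of Acta2 is Actg2, the enteric smooth muscle actin, which was 2.42 FPKM in the A75 liver and at most 0.135 FPKM in the other 7 livers, while in the kidneys it was at most 0.466 FPKM. The skeletal actin Acta1 was at 0 in all livers but A75 (0.116 FPKM), and the cardiac actin Actc1 was at most 0.0262 FPKM in the livers. Myl12a and Myl12b, the relatives of Myl9, had log2 fold changes of 0.12 and 0.25 in the liver against 1.70 for Myl9. Cnn3 had -0.05 in the liver and Cnn2 0.62, with A94 at 16.1 FPKM and the other livers at 2.503 to 3.44 FPKM. Tagln2 was also highest in A94, with 29.9 FPKM against 6.85 to 11.3 FPKM in the other livers. Tagln was above its LD range in A75, A94 and A115, and Tagln2 was at 8.07 FPKM in A75, within its LD range. Whether shared reads moved the count of any member was not tested.

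Of the 18 genes of SRF, myocardin and their partners, 0 passed and 0 reached an unadjusted p under 0.05 in either organ. In the liver 12 of 17 were above 0, where 65.7% of all genes were, and in the kidney 12 of 16, where 46.4% were. The 3 with the smallest p were Hey1 (0.81), Klf4 (0.61) and Foxf1 (0.39) in the liver and Klf4 (0.34), Prrx1 (0.36) and Notch3 (0.53) in the kidney, as log2 fold changes. Myocd, the gene of myocardin, was at 0 in all livers but A75 (0.00835 FPKM) and at most 0.0571 FPKM in the kidneys. Srf was 2.05, 2.33, 2.10 and 2.41 FPKM in the LD livers and 1.89, 1.71, 3.63 and 2.44 FPKM in the ADV livers. In the kidneys Srf was 3.14, 3.88, 3.71 and 3.65 FPKM in LD and 8.09, 5.73, 7.24 and 1.24 FPKM in ADV mice, above the LD range in A75, A91 and A94 and below it in A115, the same mice on each side as for Des, Cnn1 and Myl9.

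Markers of other cell types moved with the members in some mice, and their part in the result was not tested. Fibroblast markers were above 0 in 12 of 12 genes tested in the liver, 9 of them at an unadjusted p under 0.05, where 65.7% of all genes were above 0 and 8.65% higher at that threshold. This list was not counted under another scaling. Their summed level was 120 to 135 FPKM in the LD livers and 221, 163, 537 and 203 FPKM in the A75, A91, A94 and A115 livers. Dcn, the gene of decorin, had the smallest p (log2 fold change 0.65, limma adjusted p = 0.234), before Pdgfra (0.77) and the elastin gene Eln (1.37), with 103.6 to 119 FPKM in the LD livers and 147 to 212 FPKM in the ADV livers, and the collagen gene Col1a1 was 11.4 FPKM in A94 and at most 2.07 FPKM elsewhere. Markers of pericytes and mesangial cells summed to 20.7 to 21.4 FPKM in the LD livers and 26.7, 24.1, 39.1 and 30.3 FPKM in the ADV livers, so that A91, with Acta2 in the LD range, was above the LD livers here, and Rgs5 (0.56, limma adjusted p = 0.296), Gucy1a1 (0.73) and Kcnj8 (0.61) had the smallest p, with 9 of 10 genes tested above 0. Of this list Cspg4 was at 0 in all LD livers. Hepatic stellate cell markers summed to 104.3 to 130 FPKM in the LD livers and 111 to 143 FPKM in the ADV livers, with Lrat at 4.29 to 6.06 FPKM and 4.94 to 11.7 FPKM. Of this list 10 of 12 were above 0, and Rgs5, Hgf (0.47) and Ngfr (0.51) had the smallest p.

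Mesothelial markers, which line the organ surface, summed to 3.88 to 5.39 FPKM in the LD livers and 20.2, 3.304, 7.29 and 12.7 FPKM in the ADV livers, where Krt19, which bile duct cells share, gave 14.2 FPKM of the sum in A75. Without Krt19 the sums were 3.25 to 4.23 FPKM in the LD livers and 6.06, 2.52, 6.48 and 6.37 FPKM in the ADV livers. Krt19 (1.44), Gpm6a (0.47) and Msln (0.46) had the smallest p. Bile duct markers summed to 23.1 to 30.7 FPKM in the LD livers and 57.9, 29.2, 249 and 33.9 FPKM in the ADV livers, most of it Spp1 in A94 (242 FPKM), and without Spp1 to 5.31 to 6.29 FPKM and 23.2, 4.53, 7.12 and 13.4 FPKM. Epcam (1.16), Krt7 (0.75) and Krt19 (1.44) had the smallest p. Leukocyte markers were above 0 in 14 of 14 genes in both organs, with sums of 72.7 to 119 FPKM in the LD livers and 158, 109, 308 and 114 FPKM in the ADV livers, and Adgre1 (0.78), Lyz2 (0.75) and Csf1r (0.96) had the smallest p in the liver. Endothelial markers, which line the same vessels, summed to 46.5 to 54.9 FPKM in the LD livers and 47.0, 47.2, 78.0 and 63.4 FPKM in the ADV livers, so that A75, the liver with the most Acta2, was within their LD range, and Cdh5 (0.35), Pecam1 (0.43) and Tek (0.23) had the smallest p. Skeletal and cardiac muscle lists had 0 genes that could be tested in the liver. The cardiac list summed to 0.337 to 0.715 FPKM in the LD livers and 2.39, 0.371, 1.51 and 0.601 FPKM in the ADV livers, of which Tnnt2 gave 1.90 FPKM in A75, and the skeletal list to 0.439 to 0.763 FPKM and 0.485 to 0.850 FPKM, and urothelial Upk2 and Upk3a were at 0 in all livers.

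In the kidney the fibroblast list was above 0 in 13 of 13 genes tested, with sums of 53.2 to 89.7 FPKM in the LD kidneys and 150, 63.2, 208 and 143 FPKM in the ADV kidneys, where 46.4% of all genes were above 0, and Col1a2 (1.26), Col3a1 (2.14) and Col1a1 (1.88) had the smallest p. Pericyte and mesangial markers summed to 59.5 to 71.1 FPKM in the LD kidneys and 94.5, 75.6, 107 and 55.3 FPKM in the ADV kidneys, with A115 lowest. Urothelial markers, which line the renal pelvis, summed to 25.4 to 62.4 FPKM in the LD kidneys and 94.02, 34.4, 48.6 and 21.1 FPKM in the ADV kidneys, and their defining genes Upk2 and Upk3a were at 0 in the A115 kidney and at 1.10 FPKM or more in every other kidney. Smtn, which encodes smoothelin, and Lmod1, which encodes leiomodin 1, both of the contraction list, were lowest in A115 too, Smtn with 4.91 FPKM against 14.1 to 16.3 FPKM in the LD kidneys and Lmod1 with 0.186 FPKM against 0.503 to 1.13 FPKM. Endothelial markers summed to 147 to 159 FPKM in the LD kidneys and 195, 148, 174 and 128 FPKM in the ADV kidneys, and leukocyte markers to 55.1 to 165 FPKM and 173, 64.6, 421 and 76.1 FPKM. The hepatic stellate cell list gave 199 to 216 FPKM and 269, 258, 305 and 69.1 FPKM. The skeletal muscle list, with 1 gene tested, gave 9.32 to 14.3 FPKM and 24.1, 18.9, 17.5 and 1.58 FPKM. The bile duct list gave 740 to 2881 FPKM and 6965, 734, 1003 and 8281 FPKM, and the mesothelial list 59.9 to 64.7 FPKM and 49.3, 61.4, 58.9 and 68.2 FPKM.

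The sum of the proximal tubule list was mostly Kap, which was 36301, 35098, 26080 and 38938 FPKM in the LD kidneys and 16595, 28105, 19600 and 45922 FPKM in the ADV kidneys, lowest in A75 and A94 and highest in A115. The other 9 genes of the list summed to 2864 to 3460 FPKM in the LD kidneys and 3919, 4419, 3862 and 793 FPKM in the ADV kidneys, so that A75, A91 and A94 were above the LD range and A115 below it, while Kap was below its LD range in A75 and A94, within it in A91 and above it in A115. All 10 genes of this list had a fold change below 0, with a median of -0.25 and 0 at an unadjusted p under 0.05, and Aqp1 (50.8 FPKM) and Miox (259 FPKM) were lowest in A115. Markers of the distal nephron and podocytes summed to 1934 to 2474 FPKM in the LD kidneys and 3091, 2339, 2353 and 1300 FPKM in the ADV kidneys, with A75 above and A115 below the LD range, and 4 of 10 were above 0. The mitochondrial share given above was lowest in A94 and A75 and highest in A115, the reverse of the order of Des. The part of these differences in the members' values was not tested.

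**Figure D5:**
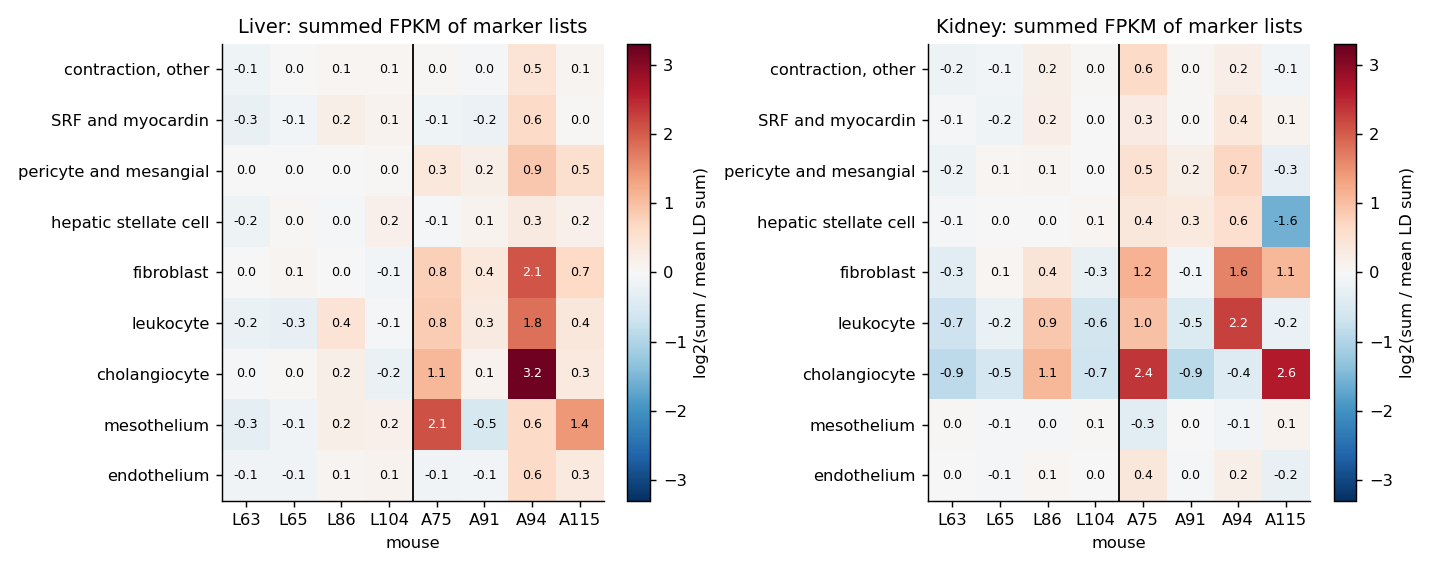
Colour and number give log2 of the summed FPKM of a marker list (rows) in each mouse (columns) over the mean sum of the 4 LD mice, liver left and kidney right. In the liver A94 is highest for fibroblast (537 FPKM), leukocyte and bile duct markers and A75 for mesothelial markers (20.2 FPKM). In the kidney A115 is low for the genes of the hepatic stellate cell list (69.1 FPKM), which was made for the liver and does not mark a cell type of the kidney here.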

How the data were processed

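Liver and kidney RNA of 4 LD and 4 ADV mice was sequenced after poly(A) enrichment with stranded paired-end reads. The authors trimmed the reads with Trimmomatic, mapped them to GRCm38/mm10 with STAR 2.5.4b, removed alignments with a mapping quality under 10 with SAMtools and used HOMER to quantify the exons of UCSC known canonical genes. The deposited values are FPKM, although the columns are named RPKM, divided by each library's own total with no further scaling. Each value times exon length and library total was a whole multiple of 0.5 fragment (100% within 0.02 of a step). DESeq2, the study's test on counts, was not run on these FPKM files. Limma-voom on the recovered fragments, which come in steps of 0.5, was an alternative.

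Genes whose FPKM times exon length in kilobases had a mean above 0.5 over an organ's libraries were tested with limma 3.58.1 (R 4.3.3) on log2(FPKM + 0.1), with a trend in the variance prior and Benjamini-Hochberg adjustment over all genes tested, ADV against LD in each organ apart. For kidney against liver and the interaction, all 16 libraries entered with the mouse as a block (fixed effect), since both organs came from the same animals. Genes over the minimum in either organ were tested there. An alternative for ADV against LD put both organs in 1 fit with the mouse as a replicate block, where the consensus correlation between the organs of a mouse was 0.0961. Exact permutation tests were two-sided, over 70 assignments or 16 sign flips (Python 3.11.15, SciPy 1.17.1). The scripts were tested on simulated data. Nothing says that mice of a group came from separate cages or litters, so that the p-values measure only the spread between these mice.

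The members, the marker lists, the tests and the rule for naming genes were chosen with earlier results of these data known. The rule names all members, the 3 genes with the smallest p of each list described (of the marker lists, printed for the liver and for kidney fibroblasts only), the defining markers, the 5 genes closest to the members' mean in each organ, and near relatives of the members; Spp1, Tnnt2, Aqp1, Miox, Cspg4, Srf, Myocd, Smtn and Lmod1 were added after their values were seen. Counting was per gene, so that isoforms were not told apart. Promoter windows are from RefSeq. Alternatives were other pseudocounts, filters and scalings, limma-voom, mouse blocks and leaving out libraries.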

Additional observations from a re-analysis of the deposited data

Results flagged for a closer look

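In 40 groups of 4 mice (10 members, 2 organs, 2 conditions), a pair of values stood far from the other mice of their group by Dixon's ratio. About 1 in 20 groups would be expected to do so by chance.

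Cnn1 was 2.28 FPKM (105.5 fragments) in the A75 liver, while the other ADV livers lay between 0.0109 and 0.200 FPKM. The gap was 0.917 of the whole range of the group. The enteric actin Actg2 was 2.42 FPKM in the same liver and at most 0.135 FPKM in the other 7, and mesothelial markers summed to 20.2 FPKM there against 3.88 to 5.39 FPKM in the LD livers, or to 6.06 against 3.25 to 4.23 FPKM without Krt19, which was 14.2 FPKM and which bile duct cells share. Bile duct markers summed to 57.9 FPKM there against 23.1 to 30.7 FPKM in the LD livers. Their part in the value was not tested.

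Tpm2 was 4.15 FPKM in the liver of the LD mouse L104, while the other LD livers lay between 2.27 and 2.41 FPKM, a gap of 0.927 of the group's range. No other member stood apart in that liver.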

How the results depend on the processing

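The comparisons were repeated under 22 other settings, which gave 1032 fold changes of members; 965 kept their direction and their side of the threshold, 34 kept their direction but no longer passed, 4 passed in addition and 29 changed sign. In the liver 0 members passed under any setting. In the kidney 0 members passed in ADV against LD, and 2 (Des and Myl9) without A115, with and without median ratio scaling, so that leaving out 1 mouse gave 0 to 2. In LD mice, 10 members passed for kidney against liver, 8 to 10 with 1 mouse left out, and 6 with quantile normalization, where 53.1% of all genes passed. In ADV mice, 9 members passed, 8 to 10 with 1 mouse left out, 7 with median ratio scaling and 6 with quantile normalization. Of all genes, 0 passed in the kidney with A115 and 2724 without it, and 525 against 0 in the interaction; median ratio scaling without A115 gave 2318 and 539. The 1 liver gene became 0 to 9 with 1 mouse left out, 6 with no filter and 0 with quantile normalization.

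Signs that turned belonged to small or noisy differences, and the cause was not tested. In the liver, Tpm2 went from 0.07 to -0.016 with median ratio scaling, -0.11 with quantile normalization, -0.0049 without A115 and -0.026 without A75, both with median ratio scaling, and ranged from -0.055 to 0.27 with 1 mouse left out; Mylk went from 0.17 to -0.0023 with median ratio scaling without A115. In the kidney, Des went from -0.13 to 0.034 and 0.11 with pseudocounts of 0.5 and 1 and to 0.70 with median ratio scaling without A115, and ranged from -0.58 to 0.89 with 1 mouse left out; Cald1 went from 0.30 to -0.088 with median ratio scaling without A115, and Cnn1 and Tpm2 to -0.087 and -0.13 without A75 and A94. For kidney against liver in ADV mice, Des went from 0.69 to -0.028 with median ratio scaling, -0.13 with quantile normalization and -0.074 with median ratio scaling without A75. In the interaction, Mylk and Tpm2 went to -0.059 and -0.37 without A75 and A94 and ranged from -0.022 to 0.17 and from -0.017 to 0.52 with 1 mouse left out, and Synpo2 went from 0.05 to -0.044 with median ratio scaling, -0.79 with limma-voom and -0.25 with median ratio scaling without A115, and ranged from -0.15 to 0.28.

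With the mouse as a replicate block in 1 fit of both organs, 0 members passed in either organ. Without the mouse block, 9 members passed for kidney against liver in LD mice, 8 in ADV mice and 0 in the interaction. The settings without A75, alone with median ratio scaling or with A94, were chosen after seeing the data. Depth limits Cnn1 and Synpo2 in the liver, with 8.5 fragments or fewer in each LD liver.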
